A study of Rattus norvegicus with 9 samples.

Results

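A set of 10 genes of fat cells and lipid droplets was followed in rat uterine tissue: Cfd, Plin1, Plin4, Adipoq, Fabp4, Lpl, Lep, Pparg, Lipe and Cd36. They were chosen by gene symbol and not by their values, and they are 10 of the 14217 genes that had a probe set with a single symbol. A probe set is the group of short probes that Affymetrix arrays use for a transcript, and the one of the highest mean stood for each gene. Of the 10 genes, 6 were bright enough to be tested among 10973 genes: Cfd, Plin4, Adipoq, Fabp4, Lpl and Lipe.

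White fat cells store triglyceride in a single large droplet coated with perilipins. Lipoprotein lipase frees fatty acids from circulating lipoproteins, membrane and cytosolic carriers take them up, and hormone-sensitive lipase helps release them again. Fat cells also secrete adiponectin, leptin and adipsin. The uterus is suspended in a mesometrium that holds fat, so fat cells can be carried along when the organ is dissected, while Lpl, Fabp4 and Cd36 are also made by endothelium, macrophages or muscle.

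The study title names VEGF, acupuncture and endometrial receptivity, and its design compared control with model and control with treatment rats. RNA from 9 uterine samples was hybridised to 9 arrays, 3 in each group. Control rats (arrays 41, 42 and 43) were left untreated. Model rats (21, 22 and 23) were given pregnant horse serum gonadotropin, PMSG, by intraperitoneal injection at 0.5 U per rat, and 48 h later the same amount of HCG, which together induce ovulation. Treatment rats (31, 32 and 33) had this induction as well, and were given electroacupuncture at the Guanyuan and Sanyinjiao points, in sessions of 15 min, on 7 days before the induction and on through it. All rats were female, and the labels count 18 of them, 6 per group, without stating strain, age, oestrous stage or whether each array holds a separate animal. The p-values below therefore measure the spread between these arrays, which may be technical. In a piece of whole tissue, fewer cells of a type and less RNA per cell cannot be told apart.

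Median intensities of the 9 arrays were 23.56 to 24.02. Control 43 stood apart from its group: over genes its log2 values correlated at 0.887 with control 41 and 0.916 with control 42, and most closely, at 0.972, with model 21. For the tested genes named below, a difference from control is given with and without it where leaving it out changes a call or moves the value by over 1.5 times. Of 8 uterine identity genes, such as Hoxa10 and Pgr, 7 were bright enough to be tested, while Esr1, the oestrogen receptor gene, lay below the 40th percentile of intensity on all 9 arrays. Of the 7 measured genes of the ovary, the organ adjoining the uterine horn, 5 were below that percentile on all arrays (Star, Cyp19a1, Inha, Amh and Hsd3b1).

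Of the 4 genes largely restricted to fat cells, Cfd and Adipoq were tested, Plin1 reached the 40th percentile of its array (15.19 to 16.19) on model 21 alone, and Lep stayed below it on every array. The sum of these 4 intensities was 68.2 to 519.3 on controls, 166.4 to 267.8 on models and 111.8 to 242.0 on treatments, and on control 41 Adipoq made up 453.8 of the 519.3. Without Adipoq the sum was 52.9 to 65.6 on controls, 104.4 to 117.9 on models and 50.2 to 88.3 on treatments. All models then lay above all other arrays, while with that 1 probe set the ranges of the groups overlapped. Most of the sum without Adipoq was Cfd, at 38.6 of 52.9 on control 43, 89.4 of 104.4 on model 23 and 65.3 of 88.3 on treatment 33. That sum thus describes mainly Cfd and not an agreement of several genes. The name of the set was borne out unevenly, since Adipoq was brightest on arrays where Fabp4 and Plin1 were dim, as described below.

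Over the arrays the secreted genes Adipoq and Cfd ran in different ways, although with all 9 arrays neither passed in any comparison. Their start regions are shown here. Each holds the 250 bases before the gene's start on its own strand, from RefSeq's promoter table of build GRCr8. The Cfd region is chr7:10465497-10465746 on the minus strand, and that of Adipoq is chr11:91240170-91240419, also on the minus strand. Capitals mark the CCAAT box, read on either strand as CCAAT or ATTGG.
Cfd: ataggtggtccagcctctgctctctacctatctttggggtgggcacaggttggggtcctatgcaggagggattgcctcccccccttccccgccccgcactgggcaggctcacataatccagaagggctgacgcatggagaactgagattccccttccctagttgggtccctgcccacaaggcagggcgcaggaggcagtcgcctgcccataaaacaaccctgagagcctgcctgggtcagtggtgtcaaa
Adipoq: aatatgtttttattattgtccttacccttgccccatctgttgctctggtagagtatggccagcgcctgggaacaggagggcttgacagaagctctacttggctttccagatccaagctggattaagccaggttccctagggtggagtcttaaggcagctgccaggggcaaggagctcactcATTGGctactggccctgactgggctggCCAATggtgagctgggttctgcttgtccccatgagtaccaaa
Adipoq held 2 CCAAT boxes, beginning 69 and 42 bases before the start, and Cfd held none. Among 27457 rat promoters of this length 34.3% held that box. Neither region held the nuclear receptor half-site AGGTCA (13.7% of promoters), the C/EBP pattern TTGCNNAA (9.2%) or the TATA box TATAAA (13.1%), each searched on both strands, with no overlap between their matches. Of the other 5 members with a region in that table, Plin1 and Lep held this C/EBP pattern, beginning 77 and 69 bases before the start. A match describes letters only and does not show that a factor binds.

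**Figure D1:**
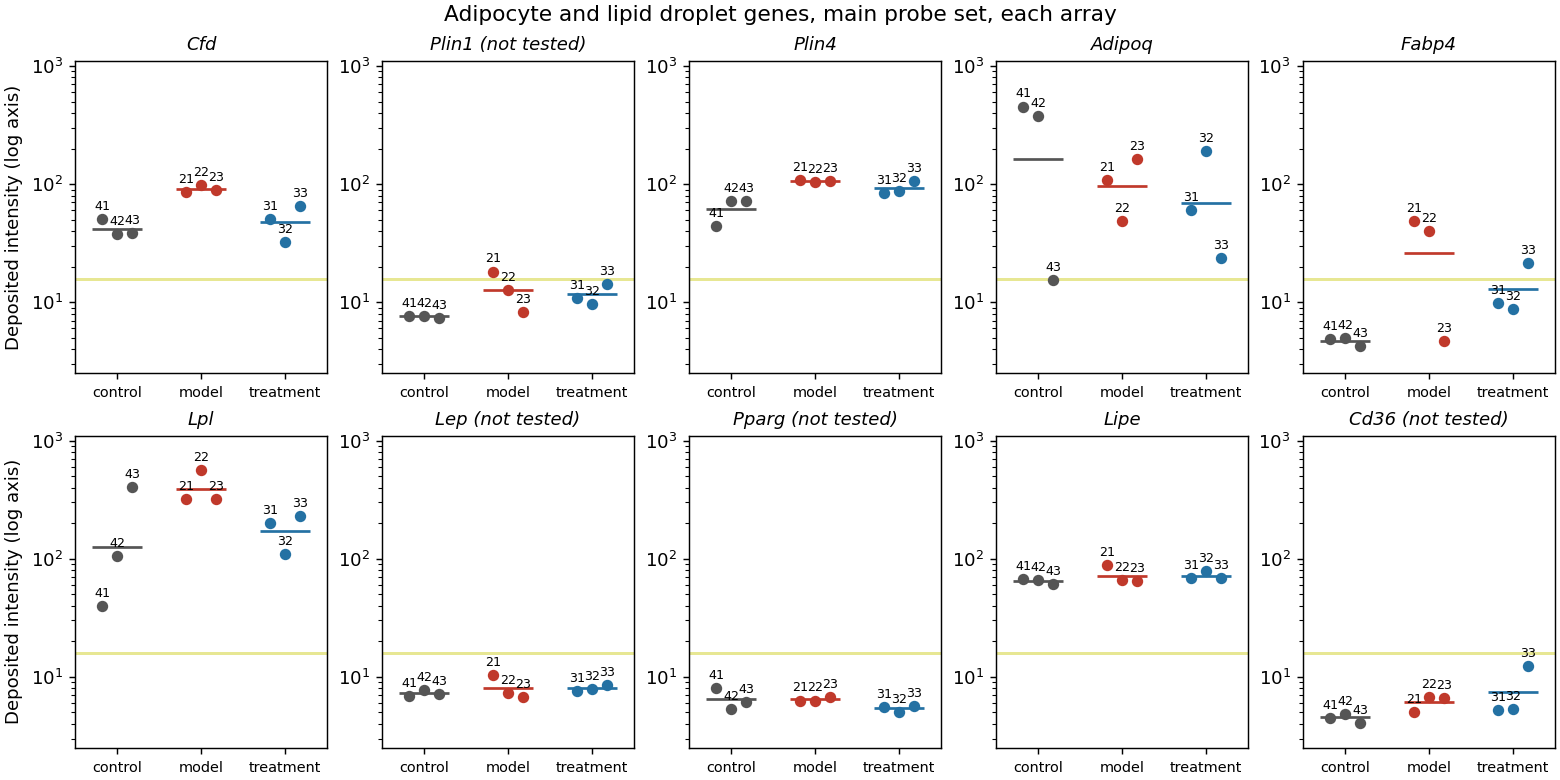
Deposited intensity (log axis) of each of the 10 genes on the 9 arrays, points labelled by array number; the short line is the group mean of log2(intensity + 16) turned back to intensity, and the yellow band the 40th percentile of the arrays, 15.19 to 16.19. All 3 model arrays lie above every control array for Cfd and Plin4, Adipoq is highest on controls 41 and 42, and Lep and Pparg stay under the band.

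The members Cfd, Adipoq and Lep encode the fat cell secretions named above, adipsin, adiponectin and leptin. Cfd encodes adipsin, a serine protease of the alternative complement pathway made by fat cells. Its intensity was 51.0, 37.7 and 38.6 on controls 41, 42 and 43, then 85.6, 98 and 89.4 on models 21, 22 and 23, and 50.5, 32.5 and 65.3 on treatments 31, 32 and 33. Every model array was brighter than every control and treatment array, while controls and treatments overlapped. Group means on the log2(intensity + 16) scale, used for every difference below, were 5.86 ± 0.18, 6.74 ± 0.08 and 6.00 ± 0.37 (SD, n = 3 each). The model minus control difference was 0.88 (SE 0.18, limma adjusted p = 0.162), and the treatment minus model difference was -0.74 (SE 0.18, adjusted p = 0.286); neither passed. Treatment minus control was 0.14 (SE 0.18, adjusted p = 0.724) and lay between -0.03 without treatment 33 and 0.34 without treatment 32. Without control 43 the model minus control difference was 0.83 (SE 0.20) and passed, at an adjusted p of 0.038.

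Adipoq encodes adiponectin, the hormone by which fat cells raise insulin sensitivity elsewhere. It measured 453.8, 377.8 and 15.3 on the controls, 107.3, 48.5 and 163.4 on the models and 60, 191.8 and 23.5 on the treatments, in array order. Controls 41 and 42 were the brightest and control 43 the dimmest of all 9 arrays, so each pair of groups overlapped. The group means were 7.49 ± 2.19, 6.81 ± 0.75 and 6.42 ± 1.21 on the log2 scale. Differences of -0.67 for model minus control (SE 1.04, limma adjusted p = 0.782), -1.07 for treatment minus control (adjusted p = 0.628) and -0.40 for treatment minus model (adjusted p = 0.870) did not pass. Single arrays set these values. Model minus control was -1.93 (SE 0.66, adjusted p = 0.0939) without control 43, 0.02 without control 41, -0.11 without control 42 and -0.27 without model 22. Treatment minus control was -2.33 (SE 0.66, adjusted p = 0.081) without control 43, -1.71 without treatment 32, -0.38 without control 41, -0.50 without control 42 and -0.52 without treatment 33. Treatment minus model was -1.04 without treatment 32, -0.80 without model 22, -0.06 without model 23 and 0.16 without treatment 33. The probe set carries an accession that RefSeq does not list as an Adipoq transcript, and whether it measures Adipoq was not tested. The main probe sets of Cfd, Plin4, Plin1, Lipe and Cd36 also carry accessions not listed for their genes.

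Leptin, the satiety hormone encoded by Lep, was dim throughout. Its intensity was 6.9, 7.7 and 7.1 on controls, 10.3, 7.3 and 6.8 on models and 7.6, 7.9 and 8.6 on treatments. Model 21 was the highest, the groups of model and control overlapped, and every array was below its 40th percentile.

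The droplet coat members were Plin1 and Plin4. Plin4 encodes perilipin 4, which coats small nascent droplets of fat cells. It measured 44.6, 72.2 and 71.8 on controls, 107.6, 104.0 and 107.2 on models and 84.0, 87.0 and 106.9 on treatments. All model and all treatment arrays were brighter than all controls, and treatment 33 was as bright as the models. Group means were 6.28 ± 0.31, 6.93 ± 0.02 and 6.76 ± 0.16 on the log2 scale. Model minus control was 0.65 (SE 0.15, limma adjusted p = 0.208), treatment minus control 0.48 (SE 0.15, adjusted p = 0.189) and treatment minus model -0.18 (SE 0.15, adjusted p = 0.582). Without control 43 the model minus control difference of 0.74 (SE 0.16) passed at an adjusted p of 0.0272, and that of treatment minus control, 0.56, did not (adjusted p = 0.0825). Without control 41, the dimmest array, treatment minus control was 0.30 (adjusted p = 0.289), and without treatment 33 treatment minus model was -0.27.

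Perilipin 1, encoded by Plin1, guards the fat droplet against lipases. Its brighter probe set measured 7.7, 7.6 and 7.3 on controls, 18.2, 12.7 and 8.2 on models and 10.9, 9.7 and 14.4 on treatments. The controls were the 3 dimmest arrays, and model 21, treatment 33 and model 22 the 3 brightest. It was left out of the tests as too dim; in the fit without a filter on intensity, model minus control was 0.29 (SE 0.11, limma adjusted p = 0.429) and treatment minus control 0.23 (SE 0.11, adjusted p = 0.341). The second Plin1 probe set stayed between 4.91 and 6.36 on all arrays.

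Lipid release was represented by Lipe, which encodes hormone-sensitive lipase. Its intensities were 67.5, 65.6 and 61.3 on controls, 87.8, 65.4 and 64.5 on models and 68.4, 79.3 and 68.2 on treatments. On this brighter probe set model 21 was the highest array, and the treatments lay narrowly above the controls. Differences were 0.12 (SE 0.11, limma adjusted p = 0.631) for model minus control, 0.12 (adjusted p = 0.614) for treatment minus control and 0.00 (SE 0.11, adjusted p = 0.997) for treatment minus model. Without model 21 model minus control was 0.00 and treatment minus model 0.12, without model 23 they were 0.19 and -0.07, and without treatment 32 treatment minus control was 0.06. A second Lipe probe set, carrying a RefSeq transcript of Lipe, reached the 40th percentile on all 9 arrays. It measured 51.6, 53.4 and 64.6 on controls, 57.7, 53.8 and 47.1 on models and 60.3, 57.8 and 53.1 on treatments. Control 43 was the highest array there, and the treatments overlapped the controls.

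Uptake of fatty acids was represented by Lpl, Fabp4 and Cd36. Lpl encodes lipoprotein lipase, which frees fatty acids from triglyceride-rich lipoproteins at the capillary wall. It measured 39.5, 105.1 and 405.5 on controls, 321.3, 563.8 and 318.5 on models and 199.5, 108.8 and 231.4 on treatments. Control 43 lay within the model range and controls 41 and 42 below every model and treatment array, while all treatments were below all models. The group means were 7.14 ± 1.48, 8.65 ± 0.45 and 7.56 ± 0.52 on the log2 scale. Model minus control was 1.51 (SE 0.66, limma adjusted p = 0.398), treatment minus control 0.41 (adjusted p = 0.784) and treatment minus model -1.10 (SE 0.66, adjusted p = 0.443). Without control 43 model minus control was 2.30 (SE 0.42) and passed at an adjusted p of 0.0169, and treatment minus control was 1.20 (SE 0.42, adjusted p = 0.134). Treatment minus control was 0.71 without treatment 32 and 0.21 without treatment 33. Without control 41, the dimmest array, model minus control was 0.83 (adjusted p = 0.896) and treatment minus control -0.27 (adjusted p = 0.837).

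Fabp4 encodes the fatty acid carrier of fat cells, also made by capillary endothelium and macrophages. Its intensities were 4.9, 5.0 and 4.3 on controls, 48.4, 40.3 and 4.7 on models and 9.8, 8.7 and 21.6 on treatments. Models 21 and 22 and treatment 33 carried the signal, and model 23 was as dim as the controls. It entered the tests through these 3 arrays alone, the only ones where it reached the 40th percentile. The group means were 4.37 ± 0.02, 5.40 ± 0.89 and 4.85 ± 0.33, and the differences were 1.02 (SE 0.38, limma adjusted p = 0.358) for model minus control, 0.47 (adjusted p = 0.548) for treatment minus control and -0.55 (adjusted p = 0.501) for treatment minus model. Without model 23 model minus control was 1.54 (adjusted p = 0.103) and treatment minus model -1.06 (adjusted p = 0.169). Treatment minus model was -0.25 without model 21 and -0.34 without model 22, and treatment minus control was 0.28 without treatment 33. With 1 added before log2 in place of 16, model minus control was 1.98, and with 64 it was 0.44; neither passed.

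Cd36 encodes a membrane transporter and scavenger receptor for fatty acids and oxidised lipoproteins. Its probe set with a single symbol was dim, at 4.5, 4.8 and 4.1 on controls, 5.0, 6.8 and 6.6 on models and 5.2, 5.3 and 12.3 on treatments. All models and treatments were above all controls, at intensities below the 40th percentile of every array. Another probe set, annotated both Cd36l1 and Cd36 and carrying a RefSeq transcript of Cd36, was brighter at 52.4, 45.8 and 75.3 on controls, 91.2, 116.0 and 312.6 on models and 132.3, 72.2 and 308.9 on treatments. Model 23 and treatment 33 were the highest there, and treatment 32 fell within the control range. Entered as Cd36, a choice made after seeing the data, it gave 1.20 for model minus control (limma adjusted p = 0.407) and 1.15 for treatment minus control (adjusted p = 0.308).

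Pparg encodes the nuclear receptor that drives fat cell differentiation. It measured 8.0, 5.3 and 6.1 on controls, 6.3, 6.3 and 6.8 on models and 5.6, 5.0 and 5.7 on treatments. These values were under the 40th percentile on all 9 arrays, with differences of at most 0.07 in size in the fit without a filter.

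Over the set, model against control gave 5 of 6 tested genes with a positive difference (53.5% of all tested genes) and Adipoq with a negative one. None of the 6 passed in limma (3 of 10973 genes, 0.0273%, did), and 4 had an unadjusted p under 0.05 (Cfd, Plin4, Fabp4 and Lpl), where 12.4% of all tested genes did. Cfd and Plin4 were the 2 genes with all models above all controls, against 7.79% of genes tested. Over all 10 genes in the fit without a filter, 9 differences were positive with a median of 0.21, against 50.8% positive and a median of 0.00 over 14217 genes. Plin1, Lep, Pparg and Cd36 count among the 10 although too dim to be tested, and the difference of Pparg rounds to 0.00. The counts without a filter below include these dim genes as well. Since Fabp4 passed the filter through its bright arrays, the counts over the 6 tested genes describe those genes and not the 10.

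Leaving out control 43 changed the call: 3 of the 6 genes, Cfd, Plin4 and Lpl, then passed in model against control, all higher in models. In the same fit 1384 of 10973 genes passed, 12.6%, with 5.7% higher. The 2 remaining controls were assumed to vary like the other arrays.

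In treatment against control 0 of the 6 genes passed in limma (0.51% of all genes passed), and 1, Plin4, had an unadjusted p under 0.05 (17.4% of all). Plin4, Fabp4 and Lipe had all treatments above all controls, 3 of 6 where 9.4% of all genes did. Lipe did so narrowly, at 68.2 or above against 67.5 or below, and its second probe set overlapped. Fabp4 was below the 40th percentile on treatments 31 and 32, at 9.8 and 8.7. Without the filter, 8 of 10 differences were positive, with a median of 0.17, against 48.9% and -0.00 over all genes. Without control 43 the count was again 0 of 6, in a fit where 6.56% of genes passed.

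Treatment against model compared induction with and without electroacupuncture. Again 0 of the 6 passed in limma, as did 0% of all genes, and Cfd was the 1 gene with an unadjusted p under 0.05 (14.7% of all). All 6 differences were negative or at 0.00, where 6704 of all 10973 tested genes had a negative one. Their median was -0.47 against -0.05 over all genes. Cfd and Lpl had all treatments below all models, 2 of 6 beside 19.9% of all genes. Without the filter 1 of 10 was positive, with a median of -0.12, against 47.5% positive and a median of -0.01 over all genes. The model arrays enter both this comparison and that with control, and the controls enter both comparisons with control, so the directions are not independent of one another.

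**Figure D2:**
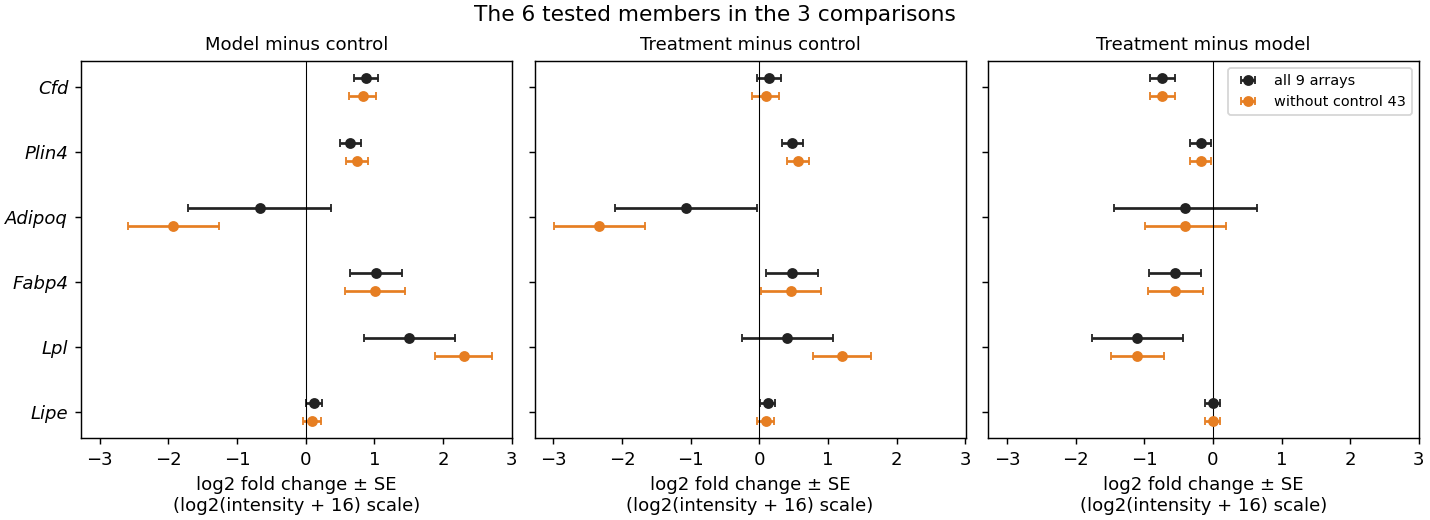
Log2 fold change ± SE of the 6 tested genes, on the log2(intensity + 16) scale, in each of the 3 comparisons, with all 9 arrays (black) and without control 43 (orange). In model minus control Lpl goes from 1.51 to 2.30 and Adipoq from -0.67 to -1.93 when that array is left out, and Cfd and Plin4 move little.

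To see which members followed a gene restricted to fat cells from array to array, each tested member was set beside Adipoq over the 9 arrays. The relations are with this probe set, for which the link to Adipoq was not tested (above). Pearson's r with Adipoq was -0.21 for Cfd, -0.49 for Plin4, -0.35 for Fabp4, -0.77 for Lpl and 0.20 for Lipe. For Lpl the exact permutation p was 0.016, with a Benjamini-Hochberg adjusted p of 0.080 over the 5 relations, and Spearman's rho was -0.78 (exact permutation p = 0.0172, adjusted p = 0.0861). For the other 4 the exact permutation p of r was 0.577 (Cfd), 0.178 (Plin4), 0.358 (Fabp4) and 0.616 (Lipe), and rho was -0.27, -0.23, -0.18 and 0.25. No relation passed after adjustment. Without controls 43 and 41, the arrays farthest from the median of Adipoq, r was -0.49, -0.61, -0.56, -0.59 and 0.09 in the same order. As deviations from group means, which describe the arrays within groups, r was -0.28, -0.54, -0.31, -0.94 and 0.41.

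Fabp4, Plin1 and Pck1 were brightest on the same 3 arrays. Pck1, which makes the glycerol backbone for triglyceride in fat cells, measured 17.8, 19.1 and 19.9 on controls, 66.4, 44.4 and 16 on models and 24.7, 24.5 and 33.9 on treatments. Cidec, a droplet fusion protein of fat cells, was below the 40th percentile throughout, with 3.7 to 5.6 on controls, 10, 6.7 and 3.7 on models and 5.6, 7.5 and 8.9 on treatments. For Fabp4, Plin1 and Pck1 models 21 and 22 and treatment 33 were the 3 brightest arrays, and model 21 was also the brightest for Plin4, Lep, Lipe, Cidec, Aqp7 and Adrb3. For Plin4 the margin was narrow, at 107.6 against 107.2 on model 23. Cidec, Aqp7 and Adrb3 are named here after their values were seen. Over all 62 measured genes of the set and the further lists, model 21 was the highest array for 17 and the lowest for 4, treatment 32 the highest for 12 and control 41 for 8. How often each array was the highest over all genes was not counted, so these counts describe the listed genes only. Other genes of fat cells ran otherwise: Agpat2 was lowest on model 21, Gpd1 peaked on control 41 as Adipoq did, Cidea measured 28.5 on model 21 and 62.2 on model 23, and Cfd peaked on model 22.

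Among all tested genes other than the members, those whose pattern over the 9 arrays was most like Fabp4 were Arsg (r = 0.977), Pck1 (0.976), Car3 (0.976), Msln (0.933) and Zfp653 (0.927); Fabp4 was added to this search after its values were seen. Car3 encodes carbonic anhydrase 3, abundant in fat and slow muscle. It measured 19.4, 12.7 and 14.4 on controls, 603.1, 402.7 and 11 on models and 58.5, 74.1 and 230.6 on treatments. Msln encodes mesothelin of the serosal lining, and measured 31.9 to 33.4 on controls, 72.9, 64.7 and 43.4 on models and 44.0, 36.2 and 44.2 on treatments. These correlations are over 9 arrays and chosen as the highest of many, and are given as a description.

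**Figure D3:**
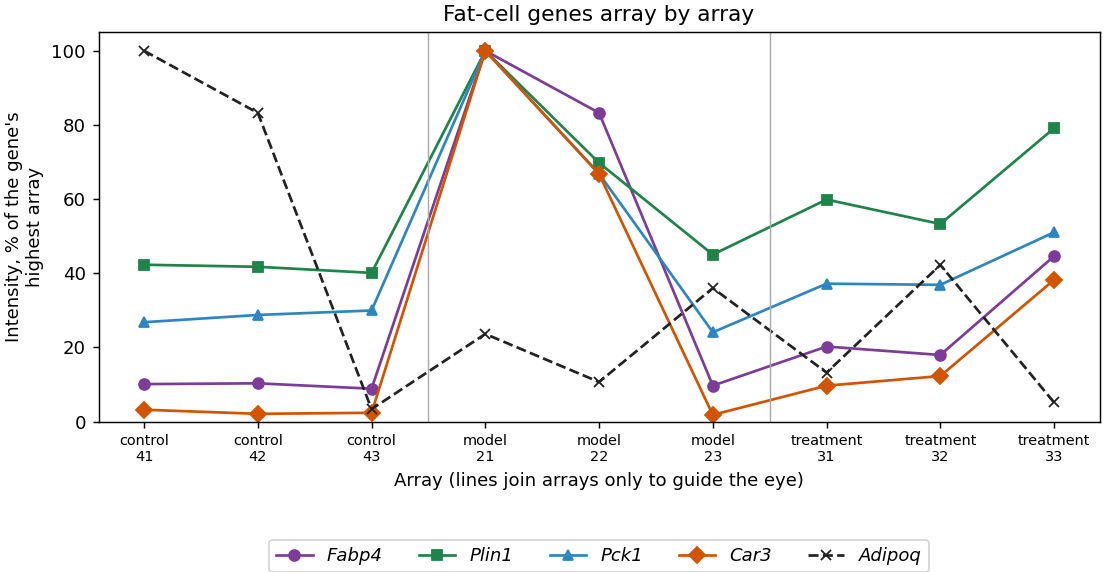
Intensity of Fabp4, Plin1, Pck1, Car3 and Adipoq on each array as a percent of the gene's own highest array; grey lines part the groups. Fabp4, Plin1, Pck1 and Car3 peak on model 21, with model 22 and treatment 33 next, and are low on model 23 and the controls; Adipoq peaks on control 41.

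The genes most like Adipoq were Stx3 (r = 0.935), Dhx58 (0.932), Nckap1 (0.922), Rala (0.920) and Clca4 (0.908). Those most like Lpl were Zfp637 (0.986), Scaf11 (0.986), Tacc2 (0.985), Dlc1 (0.983) and Meis2 (0.982). Neither list of 5 holds a gene of the fat cell lists, whereas that of Fabp4 holds Pck1.

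Markers of other cells moved with the arrays as well. The summed intensity of 9 measured epithelial markers was 4436.2 to 17253.4 on controls, 3327.2 to 4039.1 on models and 3611.4 to 5523.8 on treatments, with controls 41 and 42 at 17253.4 and 12592.9. Adipoq was likewise high on those 2 arrays. For 10 measured macrophage markers, cells that also make Lpl, Fabp4 and Cd36, the sums were 1353.8 to 3412.2, 1000.2 to 3837.5 and 1093.5 to 1552.3, with Cd163 and Itgam below the 40th percentile on all arrays. For 9 endothelial markers they were 838.2 to 1541.9, 1135.5 to 1289.6 and 490.1 to 1051.6, with control 43, the brightest control for Lpl, the highest of all arrays. The 4 mesothelial markers summed to 302.0 to 705.9, 457.0 to 920.4 and 412.5 to 610.9, with model 21 the highest. Smooth muscle markers, 10 in number, summed to 13898.7 to 22525.4 on controls, 22397.2 to 26617.8 on models and 21570.0 to 26254.7 on treatments. The part of these cells, and of fat taken along in dissection, in the differences above was not tested.

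Of 53 further genes of fat cell and lipid metabolism, 41 were tested, and 0 passed in limma in any comparison. Unadjusted p-values were under 0.05 for 8 of the 41 with model set against control, for 13 with treatment set against control and for 3 with treatment set against model, where 12.4%, 17.4% and 14.7% of all tested genes had such a p. Their median differences were -0.02, 0.10 and -0.05, beside 0.02, -0.04 and -0.05 over all genes. Without control 43, 5 of the 41 passed in model against control and 4 in treatment against control, in fits where 12.6% and 6.56% of all genes passed, so the genes named below as passing there are described singly and not as a result about the lists. Retn was not among the probe sets with a single symbol.

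Among uptake genes, Fabp5, a fatty acid carrier of epithelium and fat, measured 74.9, 59.9 and 142.4 on controls, 556.2, 383.5 and 539.8 on models and 266.1, 236.0 and 803.8 on treatments. All models and treatments were above all controls. Its difference was 2.29 for model minus control (SE 0.46, limma adjusted p = 0.162) and 1.91 for treatment minus control (adjusted p = 0.118). Without control 43 both passed, at 2.60 (adjusted p = 0.0161) and 2.22 (adjusted p = 0.0318). Slc27a1, a fatty acid transporter, differed by 0.35 and 0.38 in the same comparisons (adjusted p = 0.387 and 0.244), the second at 0.22 without treatment 33.

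Receptor genes were led by Lepr, the leptin receptor, at 40.7, 53.4 and 53.8 on controls, 119.4, 86.8 and 84.9 on models and 93.0, 78.6 and 78.1 on treatments. Here too all models and treatments were above all controls. The differences were 0.78 for model minus control (SE 0.14, limma adjusted p = 0.144) and 0.61 for treatment minus control (adjusted p = 0.118); without control 43 they were 0.84 (adjusted p = 0.018) and 0.66 (adjusted p = 0.0495), and both passed. Adipor2, an adiponectin receptor, differed by -0.80 in treatment minus control (adjusted p = 0.222), and by -0.48 without control 43 (adjusted p = 0.199).

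The lipolysis genes are described singly, since no share over all tested genes is set beside them. Pnpla2 overlapped between models and controls. Mgll, the lipase of monoglycerides, measured 219.1, 182.0 and 546.1 on controls, 178.7, 80.7 and 75.1 on models and 58.6, 81.6 and 57.8 on treatments. Control 43 was the highest array and treatment 33 the lowest. The models lay only narrowly below the controls, at 178.7 on model 21 against 182.0 on control 42. Differences were -1.31 for model minus control (SE 0.42, limma adjusted p = 0.313) and -1.87 for treatment minus control (SE 0.42, adjusted p = 0.111). Abhd5, the activator of the triglyceride lipase, differed by -0.36 (adjusted p = 0.266) and -0.37 (adjusted p = 0.139) in the same comparisons. Its models and treatments were all below its controls. Without control 43 Abhd5 passed in model against control at -0.45 (adjusted p = 0.0171) and in treatment against control at -0.47 (adjusted p = 0.0189), and Mgll passed in the latter at -1.41 (adjusted p = 0.040). For Mgll the model minus control difference was then -0.85 and did not pass (adjusted p = 0.114).

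Among droplet genes, Plin2, the perilipin of most tissues, measured 267.5, 243.4 and 763.5 on controls, 412.7, 197.3 and 179.7 on models and 119.8, 161.5 and 160.5 on treatments. All treatments were below all other arrays. Treatment minus control was -1.25 (SE 0.45, limma adjusted p = 0.224), and -0.74 (adjusted p = 0.199) without control 43, the brightest array. For Hilpda, a droplet protein induced by low oxygen, it was -0.88 (SE 0.34, adjusted p = 0.248). Among transcription factors, Klf15, a factor of fat cell and muscle metabolism, differed by 0.79 in model minus control (SE 0.21, adjusted p = 0.254) and 0.53 in treatment minus control (adjusted p = 0.248). Without control 43 Klf15 passed in model against control at 0.91 (adjusted p = 0.0353), and without control 41 its treatment minus control difference was 0.32. The adipokine Rarres2, encoding chemerin, differed by 0.61 in model minus control (adjusted p = 0.422); it passed at 0.94 without control 43 (adjusted p = 0.0239) and was 0.33 without control 41 (adjusted p = 0.901). Of the genes of triglyceride synthesis, Agpat2 had the smallest p in model minus control at -0.63 (adjusted p = 0.387), and -0.40 without control 41. Lpin1 had the smallest in treatment minus control at -0.34 (adjusted p = 0.236), and -0.20 without control 43. Of the thermogenic genes of brown fat, Ucp1 and Elovl3 were too dim to be tested, and Dio2 differed by -0.17 in treatment minus control (adjusted p = 0.286). Dio2 itself lay near the 40th percentile, at 16.5, 15.1 and 16.1 on controls and 12.2, 10.9 and 13.7 on treatments. Every treatment array was below that percentile, and the gene entered the tests through control and model arrays only.

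**Figure D4:**
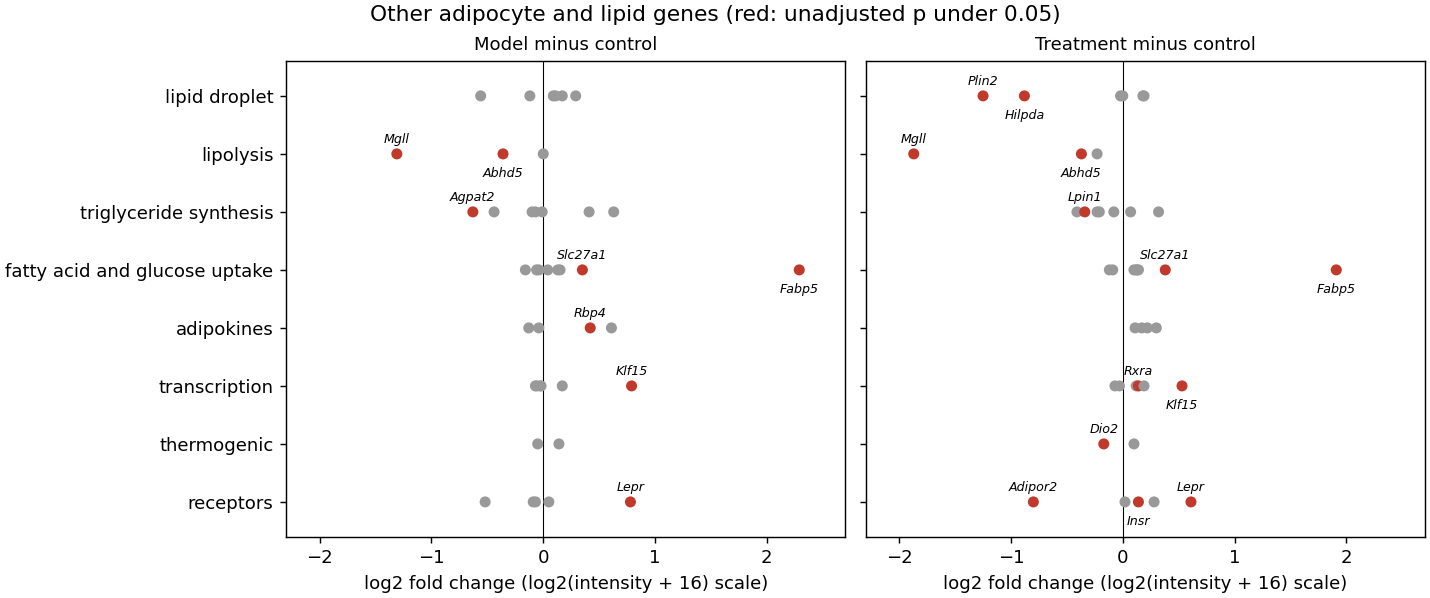
Log2 fold change, on the log2(intensity + 16) scale, of the 41 tested further genes by list, for both comparisons with control; named red points have an unadjusted p under 0.05, and none passed after adjustment. Fabp5 lies farthest to the right in both panels and Mgll farthest to the left.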

How the data were processed

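Biotin-labelled material from uterine total RNA was measured on 9 Affymetrix arrays. The deposited values were normalized intensities on a linear scale, 1 per probe set and array; MAS5 is named in the submitters' processing notes, while the sources used here do not give its settings, scaling or detection calls. The background level of the intensities is thus unknown, and the number of arrays limits the precision. Of 31042 probe sets without Affymetrix controls, 20826 had 1 symbol in the platform annotation, 436 several and 9780 none; 20764 were matched to RefSeq symbols. The scale was log2(intensity + 16), on which changes of dim genes come out too small. A probe set was kept if 3 or more of the 9 arrays had it at their 40th percentile or higher, and the one of the highest mean stood for its gene.

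Groups followed the labels. All arrays entered a single limma fit (version 3.58.1, R 4.3.3), from which the 3 comparisons were drawn (eBayes with a variance trend, two-sided), with Benjamini-Hochberg adjustment over 10973 genes and a threshold of 0.05. The fit was tested on simulated data. Correlations used exact two-sided permutation of the pairings. The members and lists were chosen with earlier results of these data known. All members were named, with, of each other list and comparison, at most 3 genes of the smallest p, and the 5 genes most like Adipoq and Lpl. As alternatives, 1 or 64 was added in place of 16, and the fit was repeated with quantile normalization, median centring, no filter or the 60th percentile, the mean over probe sets, no variance trend, the 6 compared arrays alone and each array left out. Matplotlib 3.10.9 (Python 3.11.15) drew the figures.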

Additional observations from a re-analysis of the deposited data

Results flagged for a closer look

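Some probe sets of members outside the tests were above every control array. The brighter Plin1 probe set, left out as too dim, was higher on all 3 models by a mean of 0.29 and on all 3 treatments by 0.23 (log2(intensity + 16) scale). The Cd36 probe set with a single symbol, also left out as too dim, was higher by 0.11 on the models and 0.19 on the treatments. The probe set annotated both Cd36l1 and Cd36, left out for its 2 symbols, was higher on all 3 models by 1.20. None of these passed in limma when entered, and their source was not tested.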

How the results depend on the processing

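No member passed in treatment against control or treatment against model under any alternative run. In model against control the count was 0 to 3 with each array left out, 3 without control 43, and 0 under every other setting, the Cd36 probe set with 2 symbols included. For the further lipid genes the counts with each array left out were 0 to 5 in model against control and 0 to 4 in treatment against control, both highest without control 43, where 12.6% and 6.56% of all genes passed, and 0 in treatment against model. Directions turned in a few cases, and the cause was not tested: Cfd in treatment against control was -0.032 without treatment 33 (0.340 at most); Adipoq was 0.020 in model against control without control 41 (-1.934 at the lowest) and 0.159 in treatment against model without treatment 33 (-1.038 at the lowest); Lpl in treatment against control was -0.265 without control 41 (1.198 at most). For Lipe, treatment against model was 0.086 with quantile normalization, 0.042 with the mean over probe sets and -0.065 to 0.118 with each array left out, at 0.118 without model 21, 0.027 without treatment 31 and 0.028 without treatment 33. The correlation of Lipe with Adipoq was -0.15 with the mean over probe sets and -0.02 to 0.33 with each array left out, lowest without control 43. With each array left out the other correlations lay at -0.49 to -0.05 for Cfd, -0.73 to -0.12 for Plin4, -0.62 to -0.24 for Fabp4 and -0.83 to -0.65 for Lpl. Fabp4 was not kept at the 60th percentile. No paired analysis was possible because the groups share no replicate numbers. Without a known background level, values of Lep, Pparg, Cd36 and Plin1 near or below the 40th percentile cannot be read as expression or as its absence.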
